A study of Mus musculus with 16 samples.

Results

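This account follows 10 genes of the inflammatory response that the transcription factor NF-kappaB drives, in RNA sequencing libraries of mouse bone marrow. They are the chemokines Ccl3, Ccl4 and Cxcl2, the cytokines Il1b and Tnf, the receptor antagonist Il1rn, the enzyme gene Ptgs2, and the inhibitors Nfkbia, Nfkbiz and Tnfaip3. The genes were taken by symbol, and all 10 were found among the 57132 genes of the count table. All 10 passed the filter on low counts, which kept 19152 genes. Wild-type mice (WT, labelled CB57BL/6 and named C57BL/6 in the protocol) were set beside Nrf2-/- mice (KO, the same strain label), which were bred from Nrf2+/- parents and carry an inactive Nfe2l2, the gene for the antioxidant regulator NRF2. Mice of each genotype received PBS (labelled as control), BMX-001, 5-FU, or BMX-001 and 5-FU, which gives 8 groups of 2 libraries and 16 libraries in all. BMX-001, a manganese porphyrin that acts on cellular redox reactions, was dosed at 0.5 mg/kg, first 24 h ahead of 5-FU and then at intervals of 3 days. 5-FU (5-fluorouracil, a chemotherapy drug that blocks thymidylate synthesis) was given in doses of 20 mg/kg, repeated on day 7, with marrow collected on day 10. The WT mice were males 8 to 10 weeks old, while neither age nor sex is stated for the KO mice. Marrow was taken in duplicate, with no statement that the 2 libraries of a group came from separate mice, so p-values reflect the spread between samples, and that spread may be technical. RNA came from unsorted marrow cells, in which fewer cells of a type and less RNA per cell cannot be told apart.

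NF-kappaB dimers are held in the cytoplasm by IkappaB proteins until signals from TNF, interleukin-1 or Toll-like receptors switch on the IkappaB kinases, which mark those proteins for destruction. The freed dimers enter the nucleus and within a short time switch on cytokines, chemokines and the genes of their own inhibitors, so that a brief signal is followed by its own brake. In marrow the usual sources of these transcripts are neutrophils, monocytes and macrophages. CCL3 and CCL4 attract monocytes and lymphocytes, and CXCL2 attracts neutrophils through the receptor CXCR2. IL-1beta and TNF signal back to the same pathway, IL1RN blocks the interleukin-1 receptor, and PTGS2 (COX-2) makes the precursor of prostaglandins. NFKBIA (IkappaBalpha) retains NF-kappaB in the cytoplasm, TNFAIP3 (A20) edits ubiquitin chains upstream of the kinases, and NFKBIZ (IkappaBzeta) is a nuclear cofactor that selects a later set of targets.

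Promoter sequences were available for 8 of the 10 genes (11 promoters in all). Those of Ccl4 and Nfkbiz are named only. The 250 bases before each start, from RefSeq on GRCm38.p6, were searched on both strands for the kappaB consensus, the sequence NF-kappaB binds. A match stood before 3 genes, Cxcl2, Nfkbia and Tnfaip3, against 3.9% of all 32841 promoters searched over the same length. These are printed because they carry the match. Ptgs2 and Tnf follow as 2 members without a match in this window, the first among the most variable between libraries and the second among the least. Each runs 5′ to 3′ towards the start on the strand given, and capitals mark kappaB matches.

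Cxcl2 (chr5:90903649-90903898, plus strand): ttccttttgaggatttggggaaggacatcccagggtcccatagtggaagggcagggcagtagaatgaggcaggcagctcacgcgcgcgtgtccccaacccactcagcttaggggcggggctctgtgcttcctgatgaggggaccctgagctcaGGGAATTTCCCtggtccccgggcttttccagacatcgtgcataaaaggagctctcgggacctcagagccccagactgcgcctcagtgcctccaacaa

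Nfkbia (chr12:55492648-55492897, minus strand): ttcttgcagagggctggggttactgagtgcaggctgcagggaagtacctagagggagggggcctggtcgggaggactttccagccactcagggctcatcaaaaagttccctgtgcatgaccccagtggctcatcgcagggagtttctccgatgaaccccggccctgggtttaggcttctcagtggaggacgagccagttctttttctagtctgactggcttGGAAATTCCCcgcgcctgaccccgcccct

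Tnfaip3 (chr10:19015411-19015660, minus strand): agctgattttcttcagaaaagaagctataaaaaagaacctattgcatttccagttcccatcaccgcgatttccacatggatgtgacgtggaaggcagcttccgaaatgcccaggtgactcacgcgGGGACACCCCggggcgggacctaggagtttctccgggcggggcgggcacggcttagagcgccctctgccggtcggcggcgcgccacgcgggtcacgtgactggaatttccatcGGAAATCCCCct

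Ptgs2 (chr1:150099781-150100030, plus strand): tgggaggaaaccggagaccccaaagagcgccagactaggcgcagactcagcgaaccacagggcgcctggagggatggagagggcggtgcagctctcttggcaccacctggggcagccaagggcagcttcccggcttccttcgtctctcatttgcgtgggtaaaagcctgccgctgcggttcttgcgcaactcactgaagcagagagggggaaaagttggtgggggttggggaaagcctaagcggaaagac

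Tnf (chr17:35202008-35202257, minus strand): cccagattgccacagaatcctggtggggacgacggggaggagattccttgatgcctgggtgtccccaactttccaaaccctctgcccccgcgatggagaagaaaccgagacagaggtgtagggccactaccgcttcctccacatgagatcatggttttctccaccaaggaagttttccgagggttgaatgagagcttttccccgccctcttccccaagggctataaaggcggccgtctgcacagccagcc

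In Cxcl2 the capitals hold 2 overlapping matches, GGGAATTTCC and GGAATTTCCC, whose first bases lie 97 and 96 bases before the start. The match of Nfkbia, GGAAATTCCC, begins 29 bases before it. Tnfaip3 has a match at 125 bases and another at 12 bases before the second of its annotated starts. The AP-1 motif TGANTCA, searched on both strands in the same windows, was found before Il1rn and Tnfaip3 and in 6.75% of all promoters. The cyclic AMP motif TGACGTCA was found before 0 of the 8 genes and in 1.55% of all promoters. Such matches describe the letters of the window and are not evidence of binding.

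The WT libraries held 34387432 to 39909188 counts each and the KO libraries 27305707 to 36588168. Nfe2l2, the knockout target, stood at 102.2 to 121.8 CPM in WT and 6.48 to 16.7 CPM in KO. CPM here are counts per 1000000 after scaling of library sizes. The label of marrow was checked on red cell genes, which summed to 46120 to 89900 CPM over 8 genes, and on 13 genes of maturing neutrophils, at 26330 to 40090 CPM (14 libraries). KO BMX-001 replicate 1 had the lowest total and stood alone on the first principal component, at 111.9 against -31 to 7.6 in the other 15 libraries. Malat1, a nuclear RNA, was at 12210 CPM in it and between 2549 and 5345 CPM in the rest. Its Nfe2l2 level was the highest of the KO libraries and far under the WT range. WT PBS replicate 2 stood apart in the genes described here. Results that rest on either library are given with and without them.

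The other 14 libraries give the usual level of each gene. Per kilobase of exon, the median levels were 37.4 CPM for Nfkbia, 16.2 for Il1b, 8.87 for Il1rn, 7.36 for Tnf and 5.34 for Nfkbiz. They continued with 4.43 for Tnfaip3, 2.87 for Ccl3, 1.54 for Ccl4, 0.278 for Ptgs2 and 0.266 for Cxcl2, all in CPM per kilobase. The ranges of neighbours in this order overlapped in each case, for example Nfkbia at 31.6 to 44.4 and Il1b at 11.8 to 32.9 CPM per kilobase. The inhibitors varied least over the 14 libraries. Their highest CPM was 1.31 times the lowest for Tnfaip3 and 1.41 times for both Nfkbia and Nfkbiz. Cxcl2 and Ptgs2 varied most, with ratios of highest to lowest of 7.83 and 7.26. Cxcl2 had as few as 8 counts in a library and Ccl4 as few as 18, so their low values carry more counting error than those of Nfkbia, which had at least 1717 counts in each. Exons of Il1b overlap those of the antisense gene Il1bos, which averaged 0.561 CPM, and without a stated strand setting reads of the pair cannot be told apart.

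The inflammatory chemokines stood far above their usual level in KO BMX-001 replicate 1 and WT PBS replicate 2, while the other library of each of these groups did not. Cxcl2 in WT was 0.999 and 19.7 CPM with PBS, 0.482 and 0.304 with BMX-001, 0.226 and 0.27 with 5-FU, and 0.619 and 0.447 with both drugs (replicates 1 and 2 in order, here and below). In KO it was 1.67 and 1.66 CPM with PBS, 52.6 and 0.404 with BMX-001, 1.53 and 1.77 with 5-FU, and 1.12 and 0.479 with both drugs. The high library of each pair thus exceeded its partner 19.7 times in WT PBS and 130 times in KO BMX-001. Ccl3 reached 13.1 CPM in the KO library and 18.9 CPM in the WT library, against 1.53 to 4.42 CPM in the other 14. Ccl4 reached 10.8 and 8.37 CPM in the same order, against 0.442 to 2.05 CPM. For all 3 chemokines these were the 2 highest of the 16 libraries.

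Ptgs2 followed the chemokines. In WT it was 1.33 and 22.7 CPM with PBS, 0.822 and 1.22 with BMX-001, 1.75 and 0.663 with 5-FU, and 1.06 and 0.814 with both drugs. In KO it was 4.81 and 2.35 CPM with PBS, 54.9 and 1.13 with BMX-001, 2.71 and 2.33 with 5-FU, and 1.54 and 0.719 with both drugs. The same 2 libraries were again the highest, and among the rest the KO libraries with PBS or 5-FU lay above all WT libraries.

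The cytokines did not move as one. Il1b in KO was 46.4 and 34.2 CPM with PBS, 308 and 25.6 with BMX-001, 50.3 and 62.7 with 5-FU, and 33.8 and 29.7 with both drugs. In WT it was 24.6 and 61.0 CPM with PBS, 29.8 and 26.8 with BMX-001, 39.2 and 32.1 with 5-FU, and 27.9 and 22.6 with both drugs. Il1b was thus 9.95 times the median of the 14 libraries in the KO library. The WT library, at 1.97 times, lay within the range of the 14, but above the other 7 WT libraries (22.6 to 39.2 CPM). Tnf was 13.2 CPM in KO BMX-001 replicate 1 and 16.4 CPM in WT PBS replicate 2, both inside the range of the other 14 (9.18 to 18.8 CPM). Il1rn, the antagonist, was 47.3 and 51.7 CPM in these libraries against 38.7 to 65.6 CPM in the rest.

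All 3 inhibitors were highest in the same 2 libraries. Tnfaip3 stood at 191 CPM in KO BMX-001 replicate 1 and 178 CPM in WT PBS replicate 2, while the other 14 libraries lay between 27.4 and 35.8 CPM. Nfkbiz stood at 145 and 56.8 CPM against 22.7 to 32.1 CPM. Nfkbia stood at 96.5 and 125 CPM against 50.8 to 71.5 CPM. The levels of Tnfaip3 in the 2 libraries were nearly equal at 5.97 and 5.57 times the median of the 14, while Nfkbiz was 5.4 times in the KO library and 2.12 times in the WT library.

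**Figure D1:**
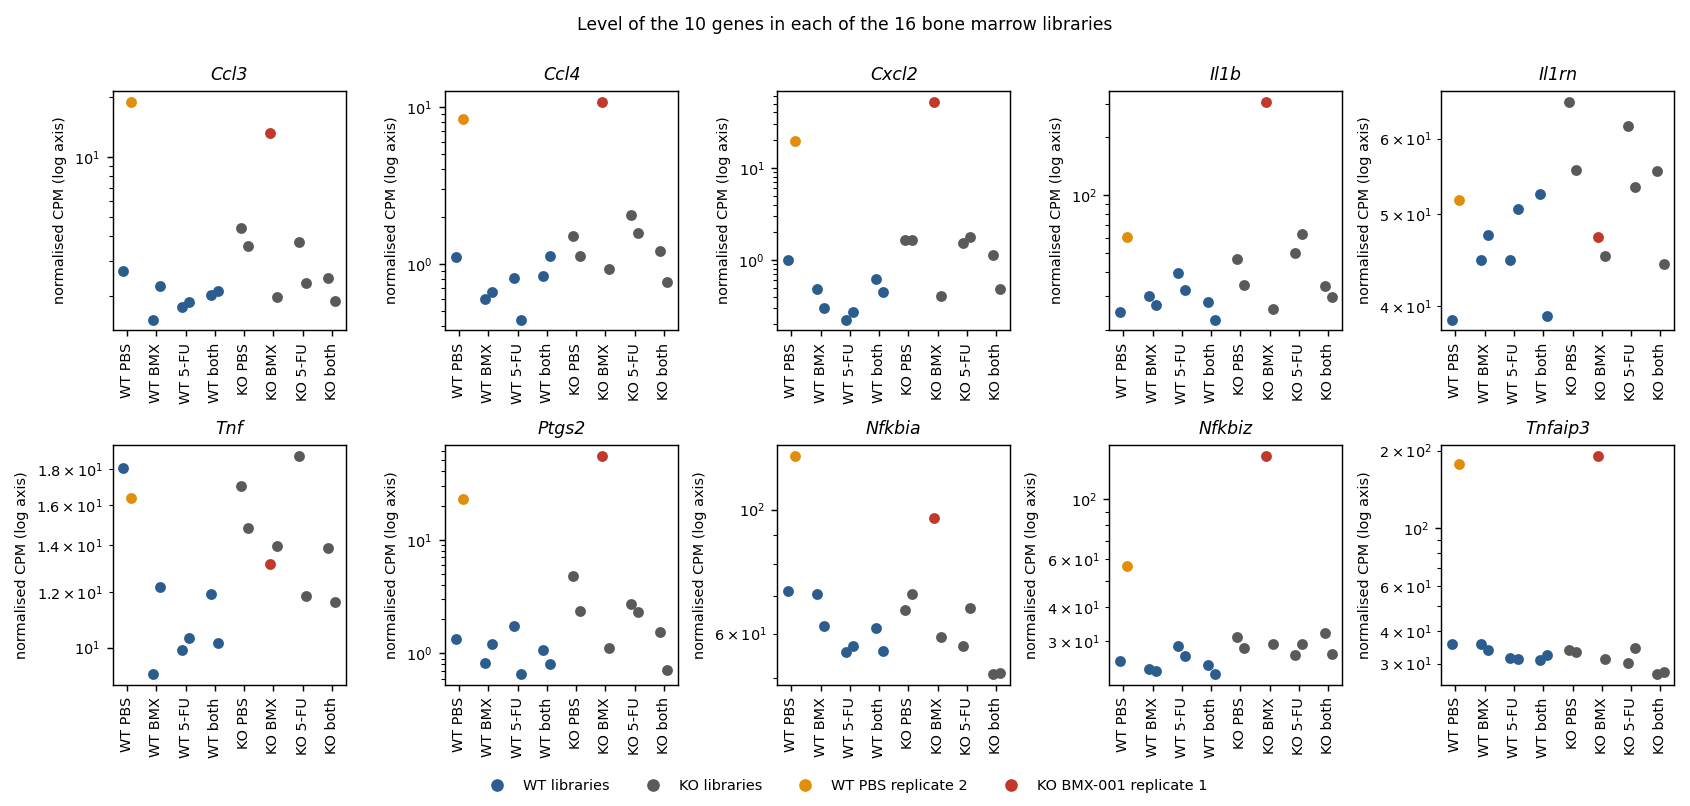
Normalised CPM of each of the 10 genes (log axes, a separate scale per panel) in the 16 libraries, arranged by genotype and treatment, with 1 point per library and replicate 1 to the left of replicate 2. In Cxcl2, Ptgs2, Ccl3, Ccl4, Nfkbia, Nfkbiz and Tnfaip3 the highest points are KO BMX-001 replicate 1 (red) and WT PBS replicate 2 (orange), while Tnf and Il1rn show no such pair.

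Taking the 2 libraries against the median of the other 14, 6 of the 10 genes were above 2-fold in both (Cxcl2, Ptgs2, Ccl3, Ccl4, Tnfaip3 and Nfkbiz), as were 1.46% of all 19152 genes tested. At 1.5-fold the count was 8 of 10 against 4.06% of all genes. These libraries were singled out after their values were seen, so the counts describe them and carry no test. The median ratio over the 10 genes was 5.97 in the KO library and 3.84 in the WT library, beside 1 over all genes in each. The libraries differed in how much else stood apart: 16.3% of all genes were above 2-fold in the KO library and 1.96% in the WT library.

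Other genes of the pathway followed by role. Of 12 further cytokine and chemokine targets 5 were above 2-fold in both libraries, namely Osm (9.31 times the median in the KO library and 6.39 in the WT library), Il6, Ccl2, Lif and Cxcl3. Ccl6 and Ccl9, the most abundant of that list, stood at 1.68 and 1.36 times for the former and 1.11 and 1.36 times for the latter. Of 20 further effector targets 3 were above 2-fold in both, Cd14 (the lipopolysaccharide co-receptor, 3.63 and 3.62 times), Ier3 and Pde4b. Of 13 further feedback inhibitors 0 were, and likewise 0 of 12 NF-kappaB subunits and kinases, 0 of 16 upstream receptors and adaptors, 0 of 7 receptors of the members and 0 of 6 inflammasome genes. Nfkb1, the p105 precursor subunit, stood at 0.847 times in the KO library and 1.1 times in the WT library. Immediate early genes, which are induced by many stimuli without new protein synthesis, stood out as often as the 10 genes. Of these 11 of 18 were above 2-fold in both libraries, with Atf3 at 16.4 and 16.1 times and Fos at 8.83 and 9.7 times. Their summed level was 2682 and 2788 CPM, against 859.3 to 1359 CPM in the other 14.

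**Figure D2:**
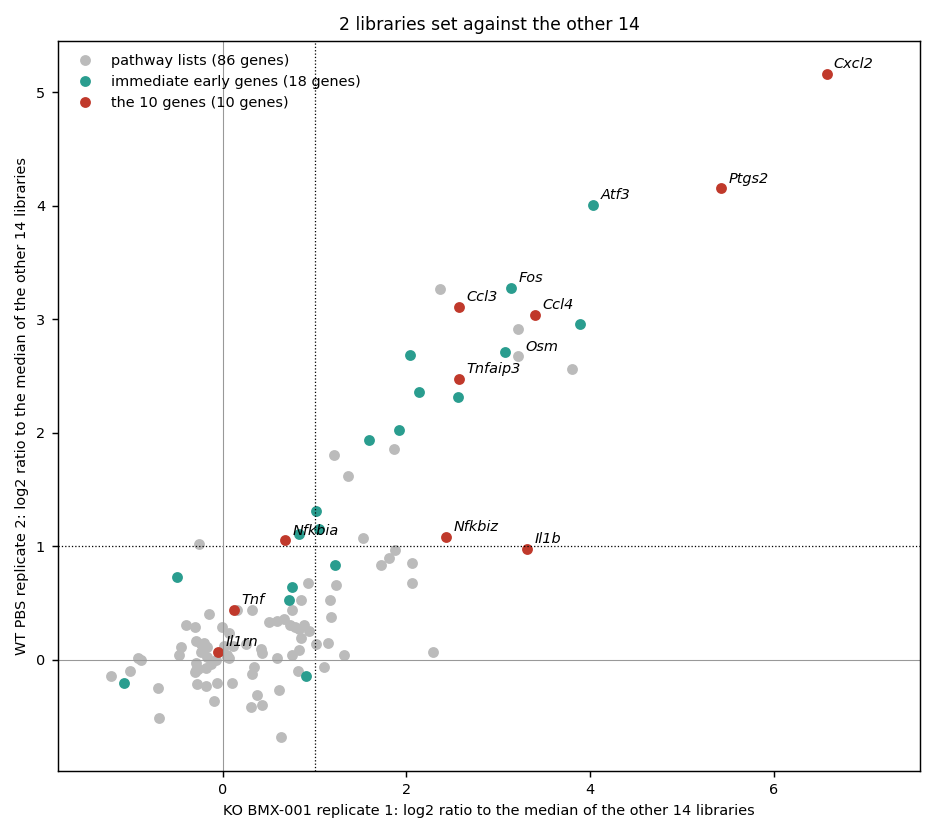
Log2 ratio of KO BMX-001 replicate 1 (horizontal) and of WT PBS replicate 2 (vertical) to the median of the other 14 libraries, 1 point per gene, for the 10 genes (red), 18 immediate early genes (teal) and 86 other pathway genes (grey), with dotted lines at 2-fold. Cxcl2 (95.5 and 35.8 times) and Ptgs2 (43.1 and 17.8 times) lie farthest out, Il1b is high mainly on the horizontal axis, and Tnf and Il1rn lie near the origin.

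Markers of marrow cell types showed no common shift in the 2 libraries: in each of 8 marker lists 0 genes were above 2-fold in both. In WT PBS replicate 2 the summed level of every one of these lists lay within the range of the other 14 libraries. Maturing neutrophil genes, at 37410 CPM in it, were however above the other WT libraries (26330 to 31630 CPM). The sums of the remaining lists lay within the range of those WT libraries. In KO BMX-001 replicate 1 monocyte genes summed to 1017 CPM against 1722 to 3399 CPM, granulocyte precursor genes to 601.3 against 2029 to 3274 CPM, and macrophage genes to 247.9 against 457.3 to 597.4 CPM. Basophil and mast cell genes summed to 190.7 against 219.8 to 362.9 CPM there. The part of these markers, of depth or of Malat1 in the levels of the 10 genes was not tested.

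Setting all KO libraries against all WT libraries compares the genotypes. Loss of NRF2 cannot be told apart here from a difference in age, sex or breeding, since neither age nor sex is stated for the KO mice. With all 16 libraries 0 of the 10 genes were called by edgeR's quasi-likelihood test at a Benjamini-Hochberg adjusted p under 0.05, where 0.178% of all genes were called. Log2 fold changes were positive for 8 of 10 with a median of 0.39, against 0.004 over all genes. Leaving out KO BMX-001 replicate 1 gave a median of 0.05, and leaving out WT PBS replicate 2 gave 0.72. The lowest adjusted p was 0.319 (Tnf, 0.26 ± 0.10 SE). Of the 10 genes 2 had an unadjusted p under 0.05 (12.7% of all genes), and DESeq2 called 0 (2.08%). With both high libraries left out, Cxcl2 was called (log2 fold change 1.01 ± 0.23 SE, adjusted p = 0.042, edgeR), beside 1.62% of 19616 genes. Over the treatments Cxcl2 was then 0.478 ± 0.268 CPM in WT and 1.23 ± 0.578 CPM in KO (SD, n = 7 each). Such means, here and for Nfkbiz and Il1b below, mix the treatments unequally, with WT PBS and KO BMX-001 at 1 library each. The SD therefore includes differences between treatments. The genotypes overlapped, since WT ran from 0.226 to 0.999 CPM and KO from 0.404 to 1.77 CPM. The call needed both libraries left out, and these were singled out after the members, Cxcl2 most of all, were seen to be high in them. Its adjusted p therefore carries no test. Without KO BMX-001 replicate 1 alone the log2 fold change was 0.17 (adjusted p = 0.954) and without WT PBS replicate 2 alone 2.51 (adjusted p = 0.321).

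In the same 14 libraries 9 of the 10 genes had an unadjusted p under 0.05, against 14.5% of all genes. Nfkbiz was 24.9 ± 2.14 CPM in WT and 29.0 ± 1.99 CPM in KO (SD, n = 7 each), a log2 difference of 0.22 ± 0.06 SE (adjusted p = 0.0604). Il1b was 29.0 ± 5.50 CPM in WT and 40.4 ± 13.2 CPM in KO (SD, n = 7 each), a log2 difference of 0.39 ± 0.10 SE (adjusted p = 0.109). Ptgs2 differed by 0.72 ± 0.28 SE (adjusted p = 0.264). Tnfaip3 pointed the other way, at -0.10 ± 0.05 SE (adjusted p = 0.334). Cell markers differed between the same libraries. Maturing neutrophil genes summed to more than in any of the 7 WT libraries (26330 to 31630 CPM) in 5 of the 7 KO libraries (26390 to 40090 CPM), although 0 of the 13 genes were called. B cell genes were under the WT range in 4 of 7 KO libraries, with 0 of 8 called, and monocyte genes overlapped, with 0 of 10 called. Of 12 macrophage genes Marco (-3.73) and Cd5l (-0.70) were called as lower in KO and Cd163 (0.45) as higher, and of 8 basophil and mast cell genes Fcer1a (0.50) as higher, all on the log2 scale. Named by the same rule, the red cell genes Hba-a1, Alas2 and Epb42 differed by 0.27, 0.24 and -0.20 on that scale. Red cell sums overlapped, at 46120 to 86700 CPM in WT and 54480 to 89900 CPM in KO. The part of these cells in the differences between genotypes was not tested. Fits without both high libraries leave WT PBS and KO BMX-001 with 1 library each, assumed to vary like the other groups. The SE of Il1b for KO against WT was 0.42 with all 16 libraries and 0.10 without those libraries. They were singled out after these genes were seen to be high in them, so the 14-library counts, calls and p-values of these genes, above, here and below, carry no test.

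In the 14 libraries 6 of 86 other pathway genes and 1 of 18 immediate early genes passed the test for KO against WT (1.62% of all genes), all higher in KO, while with 16 libraries 0 of 86 and 0 of 18 did. Osm, a cytokine of the interleukin-6 family, was higher by 0.60 ± 0.08 SE on the log2 scale (adjusted p = 0.00104) and Cd14 by 0.58 ± 0.10 SE (adjusted p = 0.00868). Smaller increases were those of Il1rap (0.30), the interleukin-1 receptor partner, Clec4e (0.29), Ptger4 (0.26), a prostaglandin E2 receptor, Tlr2 (0.22) and Junb (0.34). No member had KO and WT libraries wholly apart: 0 of 10, against 0.266% of all genes with all 7 KO libraries above all 7 WT libraries and 0.214% below. In PBS alone, KO against WT gave 0 calls among the members with 16 libraries (0.0261% of all genes), 2 genes at an unadjusted p under 0.05 (4.44% of all genes) and a median log2 fold change of -0.98. With 14 libraries that median was 0.41, again with 0 calls (0.0867% of all genes).

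The comparison of 5-FU with PBS in WT asks how the chemotherapy drug alone bears on these genes. Tnf was lower in all treated WT libraries than with PBS. It stood at 18.1 and 16.4 CPM with PBS, 9.93 and 10.3 with 5-FU, 9.18 and 12.2 with BMX-001, and 11.9 and 10.1 with both drugs. In KO the Tnf levels were 17.0 and 14.8 CPM with PBS, 18.8 and 11.9 with 5-FU, 13.2 and 14 with BMX-001, and 13.9 and 11.6 with both drugs, which overlap. In WT, 5-FU against PBS gave a log2 fold change of -0.76 ± 0.20 SE for Tnf (edgeR adjusted p = 0.14), and BMX-001 against PBS gave -0.69 ± 0.20 SE (adjusted p = 0.961). In the former comparison 0 of the 10 genes were called, against 0.00522% of all genes, and 5 had an unadjusted p under 0.05 (14.4% of all genes). DESeq2, which called 2.93% of all genes here, called 3 members: Cxcl2 (-5.38, adjusted p = 0.0216), Tnf (-0.76, adjusted p = 0.0303) and Nfkbia (-0.80, adjusted p = 0.0415). The falls of Cxcl2 and Nfkbia were smaller without WT PBS replicate 2, which leaves 1 library in that group. There edgeR gave log2 fold changes of -1.99 for Cxcl2, -0.35 for Nfkbia and -0.84 for Tnf. The edgeR test called Tnf when either KO BMX-001 library was left out (adjusted p = 0.0321 and 0.032, beside 6.87% and 6.63% of all genes), and not with both high libraries left out (-0.83 ± 0.24 SE, adjusted p = 0.0965, beside 1.17%).

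Tnf, Cxcl2, Ccl3 and Nfkbia each had both WT PBS libraries above all 6 treated WT libraries, as did 9.44% of all genes. For Nfkbia the gap was narrow, 71.5 CPM in WT PBS replicate 1 against 70.7 CPM in WT BMX-001 replicate 1. For Cxcl2 and Ccl3 the lower of the PBS libraries was 0.999 and 2.69 CPM against at most 0.619 and 2.26 CPM in the treated libraries. The 10 genes' median log2 fold change for 5-FU against PBS in WT was -1.29 with 16 libraries and -0.27 with 14. In KO it was -0.07 in both fits, with 0 calls (0.454% of all genes with 16 libraries and 4.07% with 14) and 0 members at an unadjusted p under 0.05 with 16 libraries (9.42%). Over both treatments with 5-FU against both without, the medians were -0.72 in WT and -0.99 in KO with 16 libraries, and -0.15 and -0.07 with 14, and again 0 members were called in either (0.0574% and 1.9% of all genes with 16 libraries, 0.831% and 4.08% with 14). With 16 libraries 2 members had an unadjusted p under 0.05 in each genotype (9.54% and 17.2% of all genes). The genotype difference in this response also gave 0 calls (0% of all genes, and 0.122% with 14 libraries), with 0 of the 10 genes at an unadjusted p under 0.05 (6.79% of all genes).

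Of the 86 other pathway genes 1 was called for 5-FU given in KO with 16 libraries, against 1.9% of all genes, and 3 with 14, against 4.08%, which is no more than the background. Ccl9, a chemokine that binds CCR1, fell there by 0.53 ± 0.10 SE on the log2 scale (edgeR adjusted p = 0.0127). It was 84.2 and 70.4 CPM with PBS and 64.6 and 68.1 with BMX-001, against 50.3 and 53.5 with 5-FU and 52.3 and 42.5 with both drugs, so the 4 KO libraries with 5-FU lay below the other 4. In WT it was 66.1 and 79.4 CPM with PBS and 62.7 and 71.3 with BMX-001, against 43.5 and 43.1 with 5-FU and 54.1 and 64.8 with both drugs, a log2 difference of -0.46 ± 0.10 SE (adjusted p = 0.134). The genotype difference in this response was -0.07 ± 0.14 SE (adjusted p = 0.881). With 14 libraries the fall was 0.55, and Tab2 and Tnfrsf1b, a kinase adaptor and a TNF receptor, fell too by 0.27 and 0.32. For 5-FU against PBS in KO, the 14-library test called 6 of 86 (4.07% of all genes), the 3 above with Cd83 (0.64) as higher and Nlrp3 (-0.54) and Tab1 (-0.40) as lower. Of 10 monocyte markers 4 fell in the same comparison, among them Csf1r by 0.64 and Cx3cr1 by 0.90, and of 8 red cell genes 7 fell. The maturing neutrophil genes Ly6g (-0.55) and Cd177 (-0.36) and the macrophage gene Adgre1 (-0.31) were lower too, and no other gene of their lists was called. The part of these cells in the results for Ccl9, Tnfrsf1b and Nlrp3 was not tested.

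**Figure D3:**
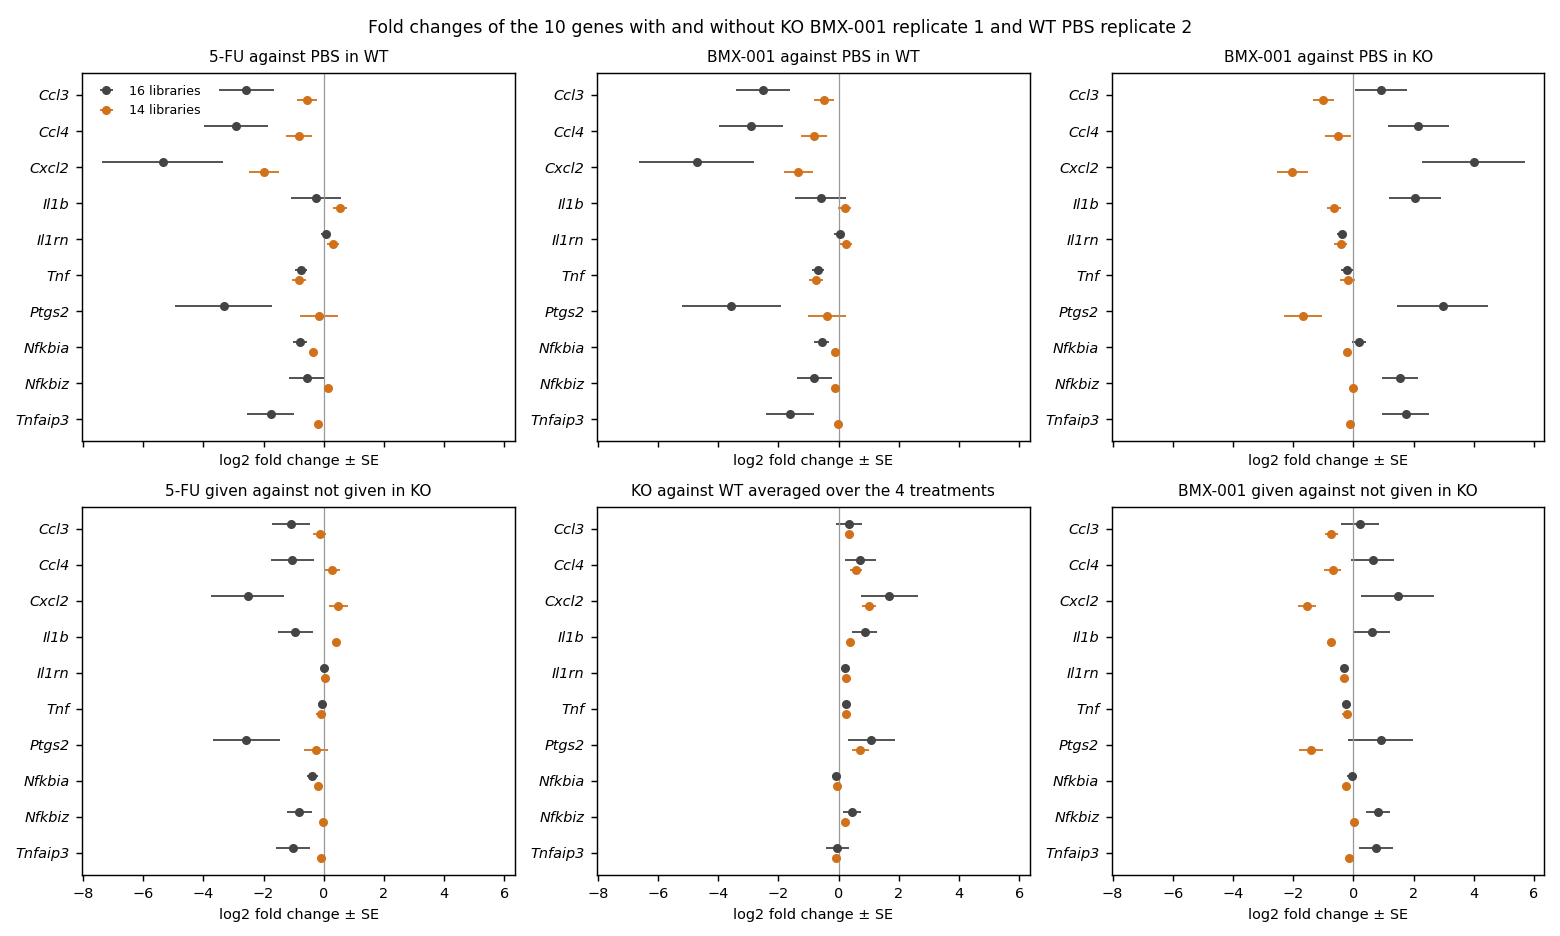
Log2 fold change ± SE of each of the 10 genes in 6 comparisons, from the edgeR fit of all 16 libraries (dark) and of the 14 libraries left without KO BMX-001 replicate 1 and WT PBS replicate 2 (orange). The 16-library estimates of Cxcl2 and Ptgs2 have SE of up to 2.01 and change sign for BMX-001 against PBS in KO when KO BMX-001 replicate 1 is left out, while those of Tnf and Il1rn have SE of at most 0.20.

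The comparisons of BMX-001 with PBS depended on the 2 high libraries, since 1 is among the WT PBS pair and the other among the KO BMX-001 pair. With 16 libraries the median log2 fold change of the 10 genes was -1.21 in WT and 1.64 in KO, and 0 genes were called in either (0% and 0.00522% of all genes). At an unadjusted p under 0.05 there were 5 members in WT and 4 in KO (5.1% and 30.6% of all genes). Cxcl2 gave -4.71 ± 1.91 SE in WT (adjusted p = 0.961) and 3.99 ± 1.70 SE in KO (adjusted p = 0.153). With 14 libraries the medians were -0.25 and -0.47 with 0 calls (0.0408% and 0.0051% of all genes), and Cxcl2 gave -1.34 ± 0.48 SE in WT (adjusted p = 0.382) and -2.03 ± 0.51 SE in KO (adjusted p = 0.323). The opposite directions of the genotypes with 16 libraries were therefore not seen with 14. When KO BMX-001 replicate 2 was left out instead, so that replicate 1 alone stood for its group, 6 members were called as higher in KO, beside 44.6% of all genes in either direction, with Il1b at 2.91 ± 0.45 SE (adjusted p = 0.0014).

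A contrast of both groups given BMX-001 with both groups not given it, added after the data were seen, sets 4 libraries against 4 in each genotype. With 16 libraries 0 of 10 genes were called in WT (0% of all genes) or in KO (0.0157% of all genes), and 0 and 1 had an unadjusted p under 0.05 (3.08% and 22.9% of all genes). With 14 libraries 0 of the 10 passed the test in KO, and the 3 members whose KO libraries separated by BMX-001 are given here, picked for that separation. Cxcl2 was 1.53 to 1.77 CPM in the 4 KO libraries without BMX-001 and 0.404 to 1.12 CPM in the other 3, a log2 difference of -1.54 ± 0.31 SE (adjusted p = 0.0783). Il1b was 34.2 to 62.7 CPM against 25.6 to 33.8 CPM, a difference of -0.74 ± 0.14 SE (adjusted p = 0.0987). Ptgs2 was 2.33 to 4.81 CPM against 0.719 to 1.54 CPM, a difference of -1.42 ± 0.40 SE (adjusted p = 0.156). These 3 of the 10 genes had the 4 libraries without BMX-001 wholly above the 3 with it, as did 3.85% of all genes, and 0 did when KO BMX-001 replicate 1 was counted (2.8%). In WT, without WT PBS replicate 2, Nfkbiz alone had the 3 libraries without BMX-001 wholly above the 4 with it (4.35% of all genes).

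In this contrast with 16 libraries 7 of 10 log2 differences in KO were positive, with a median of 0.62. The 14-library contrast leaves out KO BMX-001 replicate 1, singled out for high levels of these genes. Its BMX-001 arm was thus lowered by that selection for most of them. There 9 of 10 log2 differences in KO were negative, with a median of -0.50 against -0.004 over all genes. Of the 10 genes 8 had an unadjusted p under 0.05, against 14.9% of all genes, and 0 were called, against 0.0306%. Ccl3 and Ccl4, at -0.74 ± 0.22 SE and -0.69 ± 0.28 SE, overlapped between the arms, and Nfkbiz was at 0.03 ± 0.08 SE. In WT the median was -0.14, with 0 calls (0.148% of all genes) and 0 members at an unadjusted p under 0.05 (8.79%). The test of the genotype difference in this response called 0 of the 10 genes with 14 libraries (0% of all genes), 4 had an unadjusted p under 0.05 (9.67% of all genes), and the lowest adjusted p was 0.367, for Cxcl2 at -1.41 ± 0.46 SE. With 16 libraries 0 were called (0% of all genes), 1 had an unadjusted p under 0.05 (11.5%), and the difference for Cxcl2 was 3.28 ± 1.95 SE (adjusted p = 0.502). Osm was 23.0 to 27.5 CPM in the KO libraries without BMX-001 and 14.4 to 16.1 CPM in those with it that the 14-library fit kept. It fell by 0.70 ± 0.11 SE on the log2 scale in that fit. KO BMX-001 replicate 1, which was left out there, had 142 CPM. With 16 libraries 0 of 86 other pathway genes, Osm included, were called in KO (0.0157% of all genes).

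For the immediate early genes 0 of 18 were called in the same contrast in KO, with 16 libraries or 14. Fos was 71.9 and 78.1 CPM with PBS and 68.8 and 75.3 with 5-FU in KO, against 30.4 in KO BMX-001 replicate 2 and 20.7 and 19.1 with both drugs. KO BMX-001 replicate 1 had 273 CPM of Fos. Without that library the log2 difference of Fos was -1.58 ± 0.32 SE (14 libraries). Of 18 immediate early genes 9 had the 4 KO libraries without BMX-001 above the 3 with it (3.85% of all genes). When KO BMX-001 replicate 1 was counted, 0 did (2.8%). The median log2 difference of the 18 was -0.39. Maturing neutrophil genes summed to 32020 to 40090 CPM in those 4 libraries and 26390 to 33340 CPM in the 3, and monocyte genes to 1796 to 3399 and 1722 to 2435 CPM. Both marker sums overlapped, and their part in the differences was not tested. Where both drugs were set against 5-FU alone in KO, a comparison that holds neither high library, the median was -0.38 with 0 members called (0% of all genes), 0 at an unadjusted p under 0.05 (2.61%), and Il1b gave -0.83 ± 0.84 SE (adjusted p = 1) with 16 libraries. In the 14-library fit the SE of Il1b was 0.18 and its adjusted p 0.615, with 6 of the 10 genes at an unadjusted p under 0.05 (7.02% of all genes). In WT the same comparison gave a median of 0.04, 0 calls (0% of all genes, and 0.0051% with 14 libraries) and, at an unadjusted p under 0.05, 0 members with 16 libraries (3.93%) and 3 with 14 (10.6%).

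**Figure D4:**
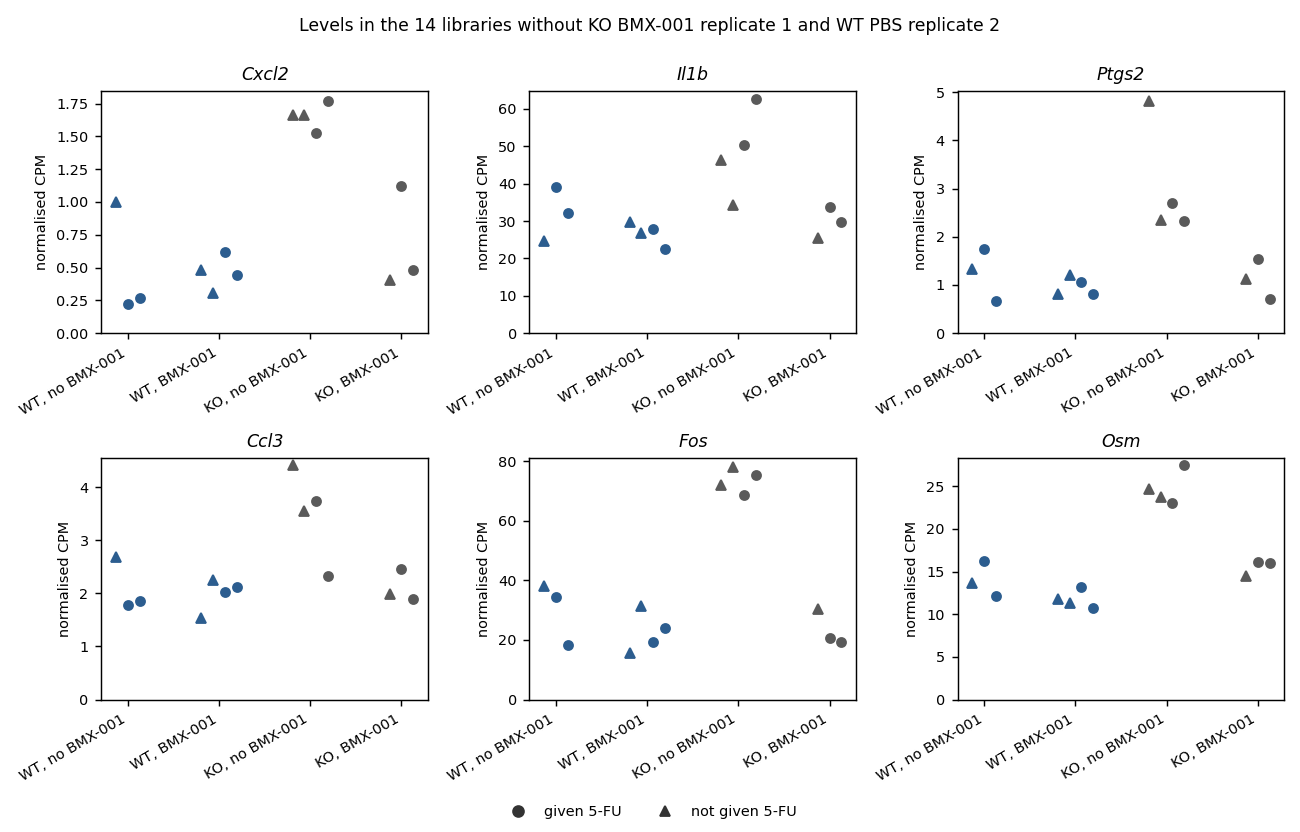
Normalised CPM (linear axes from 0) of Cxcl2, Il1b, Ptgs2, Ccl3, Fos and Osm in the 14 libraries, grouped by genotype and by BMX-001, with circles for libraries given 5-FU and triangles for those not. For Cxcl2, Il1b, Ptgs2, Fos and Osm the 4 KO libraries without BMX-001 lie above the 3 with it, and in WT the arms overlap for all 6 genes.

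The genes outside the lists whose pattern was most like the mean of the 10 over the 16 libraries were Plk3 (Pearson r 0.968), Trem1 (0.967), Tmem251 (0.964), Trib1 (0.96) and Rgs1 (0.95), out of 10990 genes searched. Plk3, a stress-responsive polo-like kinase, was 82.6 CPM in KO BMX-001 replicate 1 and 21.3 CPM in WT PBS replicate 2 against 3.07 to 10.2 CPM in the other 14. Trem1, an activating receptor of neutrophils and monocytes, was 180 and 108 CPM against 29.3 to 52.9 CPM. Over 15 libraries without KO BMX-001 replicate 1 the 5 were Plk3, Trem1, Trib1, Tmem251 and Bhlhe40. Over the 14 libraries Plk3 still had an r of 0.98, so its likeness did not rest on the high libraries. Among the members themselves, Ptgs2 had an r of 0.92, Cxcl2 0.85 and Ccl3 0.83 with the mean of the other members over the 14 libraries, while Nfkbia had 0.32 and Tnfaip3 0.09. These correlations share libraries and depth and are given as descriptions.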

How the data were processed

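RNA was sequenced from 16 marrow libraries, and the values used are the raw counts per gene that the authors deposited. Per the submitters' processing notes the build was GRCm39 and featureCounts, Salmon 1.4.0, Trim Galore 0.6.4, DESeq2 1.38.3, FastQC 0.12.1 and R 4.3.0 were used. No aligner, annotation release or strand setting is named there. Symbols and exon lengths were joined by Ensembl ID from an annotation of an earlier build (51880 of 57132 IDs had a symbol). Counts were fitted with edgeR 4.0.16 in R 4.3.3: filterByExpr, TMM scaling, 8 group means, robust quasi-likelihood tests, and Benjamini-Hochberg adjustment over all genes tested in a comparison. That left 8 residual degrees of freedom with 16 libraries and 6 with 14. DESeq2 1.42.0, other scalings, no filter, a replicate block, each library left out in turn and both high libraries left out were alternatives. The fit was tested on simulated data. Paired libraries of each group differed by more than sampling noise (chi-square per degree of freedom 8.09 to 130). Named genes are all members, called genes of the other lists, some of the most abundant genes of those lists and the 5 genes most like the members. Fos, Atf3 and genes above 2-fold in both high libraries were named after their values were seen. Members, lists and comparisons were chosen with earlier results of these data known, and 3 BMX-001 comparisons were added after seeing the data.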

Additional observations from a re-analysis of the deposited data

Results flagged for a closer look

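In each genotype the 4 libraries of mice given 5-FU and the 4 of mice not given it were tested for a single value far from the rest by Dixon's test at its 95% critical value, run on log2 CPM (prior count 2), where the ratio is the gap to the nearest library divided by the range. Of 40 sets of 4 tested, 5 had such a library, where the nominal rate of the test is about 1 in 20. In WT without 5-FU it was WT PBS replicate 2, for Tnfaip3 (ratio 0.968), Nfkbiz (0.906) and Ptgs2 (0.859). In KO without 5-FU it was KO BMX-001 replicate 1, for Tnfaip3 (0.958) and Nfkbiz (0.942). Among sets with 5-FU there were 0. All 5 flags thus came from the 2 libraries already known to be high, in genes that were high together there. The sets are therefore not independent, and the nominal rate cannot show an excess over chance. The share of all tested genes flagged in the same sets is not given here.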

How the results depend on the processing

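DESeq2 size factors, library totals and a non-robust fit left the count of called members at 0 in all 14 comparisons, as did fits of the compared groups alone in the 11 comparisons where they were run. Of 3330 results for single members over all alternatives, 154 changed sign without a call and 94 became called. DESeq2's own test called 3 members for 5-FU against PBS in WT and 0 elsewhere. For the genotype difference in the 5-FU response it gave an adjusted p for Nfkbia alone, so the other members could not be called there. Without the filter on low counts, edgeR called 5 members for KO against WT, 5 in PBS, 6 and 8 for 5-FU given in WT and KO, 1 for the genotype difference in that response, 8 for 5-FU against PBS in WT, 8 and 8 for BMX-001 against PBS in WT and KO, 2 for both drugs against 5-FU in KO, 7 and 6 for BMX-001 given in WT and KO, and 7 for the genotype difference in it, beside 0.366% to 10.7% of all genes in these comparisons. In that fit the prior degrees of freedom were infinite, against a median of 4.92 with the filter and 1.31 for Cxcl2, so each gene's own spread had no weight.

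With 14 libraries 1 member was called, for KO against WT. The medians then were 0.41 for KO against WT in PBS, -0.065 for 5-FU given in KO, -0.27 for 5-FU against PBS in WT, -0.25 and -0.47 for BMX-001 against PBS in WT and KO, -0.50 for BMX-001 given in KO and -0.50 for the genotype difference in it. With each library left out in turn, members called ran from 0 to 2 for KO against WT, 0 to 5 for 5-FU given in KO, 0 to 1 for 5-FU against PBS in WT, 0 to 6 for BMX-001 against PBS in KO, 0 to 2 for BMX-001 given in KO and 0 to 2 for the genotype difference in it. The highest of these came without KO BMX-001 replicate 2, where 22.1%, 29.7%, 6.63%, 44.6%, 39.3% and 26.7% of all genes were called in the same order, and for 5-FU against PBS in WT also without KO BMX-001 replicate 1 (6.87%). The medians ran from -1.58 to 0.41 for KO against WT in PBS, -1.40 to -0.065 for 5-FU given in KO, -0.87 to 0.73 for the genotype difference in that response, -1.83 to -0.27 for 5-FU against PBS in WT and -1.83 to -0.25 for BMX-001 against PBS in WT. They ran from -0.47 to 2.38 for BMX-001 against PBS in KO, -0.50 to 1.05 for BMX-001 given in KO and 0.34 to 1.73 for the genotype difference in it. The extremes came without a WT PBS or a KO BMX-001 library. The replicate block called 0 members in any comparison. Deviations of same-numbered libraries correlated at -0.39 to 0.20 over 28 pairs of groups, with 6 above 0.1. The check showed no pairing common to all groups, but it cannot exclude one shared by some of them. Low counts of Cxcl2, Ccl4 and Ptgs2 limit the precision of their levels in the 14 libraries.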
